A study of Mus musculus with 6 samples.

Results

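The genes of the glial intermediate filaments, Gfap, Vim, Nes and Synm, were followed in mouse primary hippocampal neuron cultures that had received apolipoprotein E (apoE) particles. The 4 symbols were taken by name, on condition that their deposited value was not 0. All 4 met it in all 6 libraries, out of 26562 symbols with a value other than 0 and 47593 symbols listed. The members were chosen by these nonzero log2 values and proposed with earlier results of these data in view, in which Gfap was known to differ between the treatments, so the calls below are a description and no independent evidence. The tested samples (n = 3) had received microglial apoE particles and the samples they are set against (n = 3) had received astrocytic apoE particles. In both groups the genotype was WT, the dose was 6 µg/mL, given on culture day 10 for 24 h, and the medium was Neurobasal with B27 and GlutaMAX. Cultures without particles were not analysed here, and the labels do not name the strain, the age of the animals or separate cultures behind the 3 samples of a group. Each p-value is thus set against the spread of these samples alone, which may be technical. The cells are labelled as neurons, and neuronal transcripts such as Map2 (14.53 ± 0.05 with microglial and 14.63 ± 0.02 with astrocytic apoE, log2 value, SD, n = 3) were present, but the genes described here are known mainly from astrocytes and neural progenitors.

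Intermediate filaments are rope-like polymers of coiled-coil proteins that give a cell its mechanical strength and organise its organelles. In astrocytes, GFAP and vimentin copolymerise into one network. Nestin needs a partner such as vimentin to enter filaments and is known from dividing neural progenitors and from reactive astrocytes. Synemin, a large member, joins vimentin or GFAP filaments and links them to other cell structures. Gfap is the standard marker of mature and reactive astrocytes, whereas Vim is also made by progenitors, fibroblasts, endothelial cells and microglia.

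The start regions of Gfap and Nes are shown because these were the members that passed the test, in opposite directions. Each window is the RefSeq sequence (GRCm38.p6) from 250 bases before to 50 bases after the start that RefSeq annotates, read 5′ to 3′ on the gene's strand. That start is not the outer end of the GENCODE gene span given further on, which takes in every annotated transcript: it lies 3712 bases inside the span for Gfap, 384 for Vim and 15 for Nes, and at its end for Synm. Capitals mark matches, on either strand, to the motifs searched.
Gfap, chr11:102897151-102897450, minus strand: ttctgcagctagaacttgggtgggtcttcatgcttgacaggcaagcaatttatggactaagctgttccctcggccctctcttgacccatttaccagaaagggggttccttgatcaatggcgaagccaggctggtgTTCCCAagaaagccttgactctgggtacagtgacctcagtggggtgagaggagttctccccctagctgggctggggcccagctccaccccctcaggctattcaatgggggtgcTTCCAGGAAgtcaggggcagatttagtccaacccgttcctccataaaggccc
Nes, chr3:87970843-87971142, plus strand: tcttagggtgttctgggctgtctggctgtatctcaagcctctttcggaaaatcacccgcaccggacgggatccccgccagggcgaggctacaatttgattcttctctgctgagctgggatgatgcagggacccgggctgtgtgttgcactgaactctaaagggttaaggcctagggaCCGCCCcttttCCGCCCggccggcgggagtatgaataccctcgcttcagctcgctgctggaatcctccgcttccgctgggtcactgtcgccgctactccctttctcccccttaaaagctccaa
The capitals in Gfap are an RBPJ core (TGGGAA, on the opposite strand, 115 bases before the start) and a STAT-type palindrome (TTCNNNGAA) that begins 2 bases before the start. Of 32851 RefSeq windows of this length, 25.6% hold the RBPJ core and 8.3% the STAT palindrome. In Nes they are a pair of GC boxes (GGGCGG, opposite strand, 73 and 62 bases before the start), a motif held by 35.7% of windows. The window of Vim (chromosome 2) held TATAAA at 32 bases before the start, and matches to CCAAT and to the NFI core TTGGC, one pair of which overlaps. That of Synm (chromosome 7) held an overlapping CCAAT and TTGGC match. These motifs occur in 13.6% (TATAAA), 37.4% (CCAAT) and 46.7% (TTGGC) of windows. No member's window held the AP-1 letters TGANTCA (7.81% of windows) or the interferon-stimulated response element (TTTC, 2 unspecified bases, TTTC, in 3.44%). The Gfap and Nes windows differed in CpG content, with 3 CG dinucleotides in Gfap and 18 in Nes, against a median of 7 over all windows. These matches describe the letters and not occupied sites.

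The deposited log2 values were taken as sharing one scale across libraries, and the number of reads behind them is unknown. Summed over symbols, 2^value came to 18060473 to 18100239 with microglial and 18145684 to 18337624 with astrocytic apoE, of which mitochondrially encoded transcripts made up 5.71% to 5.77% with microglial and 6.46% to 7.92% with astrocytic apoE. Whether that difference plays a part in the results was not tested. The values were tested with limma over the 15055 genes that reached 10 on the 2^value scale in at least 3 libraries, and a gene was called when its p, adjusted over all of them by Benjamini-Hochberg, was under 0.05. All 4 members passed that filter in every library. Of all genes tested, 24.9% were called, 13.0% higher and 11.8% lower with microglial apoE. The direction of calls depended on scaling: 52.4% of them were higher as deposited, 34.8% after median centring, 65.6% with the sum of 2^value made equal and 41.6% with that sum made equal without mitochondrial transcripts.

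Here and below, a gene that fell or rose was lower or higher with microglial than with astrocytic apoE. Without cultures that received no particles, which of the groups moved cannot be told. The members did not move together: Gfap fell, Nes rose, and Vim and Synm did not pass. That makes 1 called lower and 1 called higher of 4, beside 11.8% called lower and 13.0% called higher of all genes, and nothing is read from such small counts. The members differed in the size of the change: 0.193% of tested genes had a larger absolute log2 fold change than Gfap, 5.13% a larger one than Nes, 28.0% than Synm and 84.8% than Vim.

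Gfap (ENSMUSG00000020932, GRCm38 chromosome 11, 102887336 to 102900912, minus strand) had values of 11.92, 11.93 and 11.90 in the 3 microglial apoE libraries, against 13.00, 12.99 and 13.01 in the 3 astrocytic apoE libraries. Every microglial apoE library lay below every astrocytic apoE library, with a gap of 1.06 between the nearest of them. The log2 fold change was -1.08 ± 0.026 (SE, limma adjusted p = 2.7e-21), the lowest of all 15055 genes. On the linear scale of 2^value, Gfap averaged 3868 ± 40.7 with microglial and 8193 ± 59.3 with astrocytic apoE (SD, n = 3). Its SDs on the log2 scale were 0.015 with microglial and 0.010 with astrocytic apoE. Both were below the 0.019 that counting alone would give if 2^value were a count, so these SDs may be too small. The SE of 0.026 also draws on the spread of other genes in limma and does not follow from these SDs alone. Whether that SE is too small is unknown. In bulk RNA, a different number of astrocytes and a different level of Gfap RNA per astrocyte cannot be told apart, in either group. An annotated long noncoding RNA on the opposite strand, Gm26668, spans the gene, and no source used here gives the strand setting of the counting. Its value was 1.31 ± 0.003 with microglial and 1.31 ± 0.006 with astrocytic apoE (SD, n = 3), near the bottom of the scale.

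**Figure D1:**
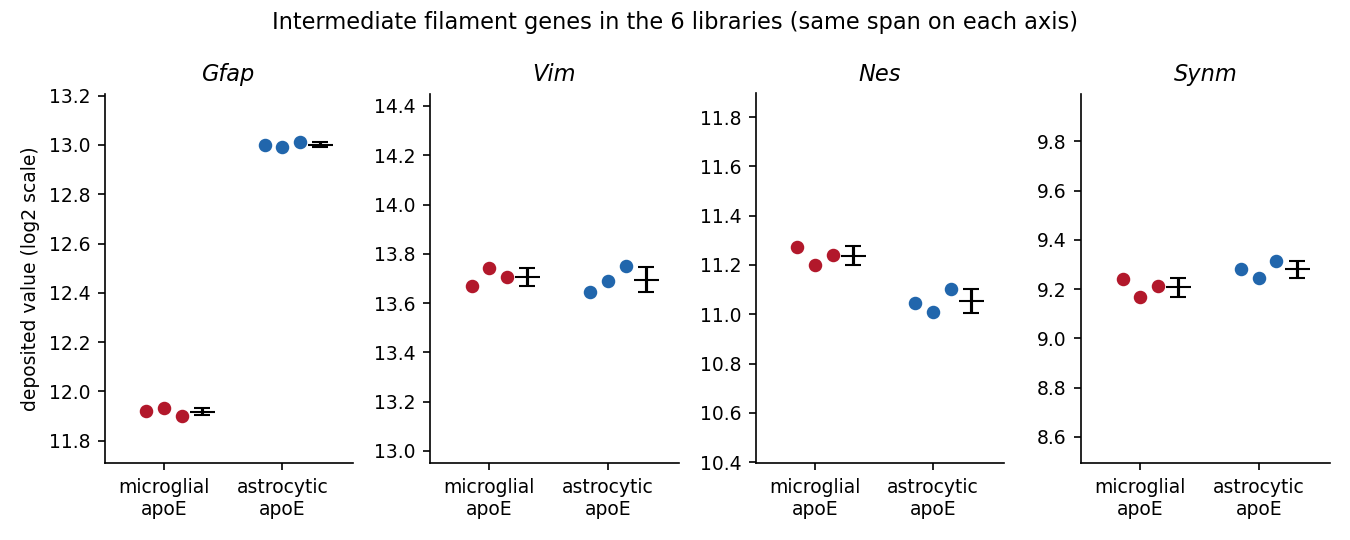
Deposited log2 values of Gfap, Vim, Nes and Synm in the 3 microglial apoE (red) and 3 astrocytic apoE (blue) libraries, with each group's mean and SD in black; each vertical axis spans the same range on the log2 scale. The Gfap groups are 1.06 apart at their nearest, the Nes groups are separated by 0.095, and the Vim groups overlap.

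Vim (ENSMUSG00000026728, chromosome 2, 13573927 to 13582826, plus strand), the general filament protein of glia and mesenchymal cells, had the highest level of the members per kb of exon. Its values were 13.67, 13.74 and 13.71 with microglial apoE, against 13.65, 13.69 and 13.75 with astrocytic apoE. The groups overlapped throughout, and the difference of 0.01 ± 0.029 (SE, limma adjusted p = 0.84) was well inside the SDs of 0.036 with microglial and 0.051 with astrocytic apoE. Its sign was the opposite, still without passing, after median centring (-0.0084) and when the sum of 2^value without mitochondrial transcripts was made equal (-0.00023), and without microglial replicate 2 (-0.0077) or astrocytic replicate 1 (-0.014). Per kb of exon Vim ranked 204 among 14550 tested genes with a single annotated position, from the highest.

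Nes (ENSMUSG00000004891, chromosome 3, 87971078 to 87980451, plus strand), the progenitor filament gene, had values of 11.27, 11.20 and 11.24 with microglial apoE, against 11.05, 11.01 and 11.10 with astrocytic apoE. All 3 microglial apoE libraries were higher than all 3 astrocytic apoE libraries, by at least 0.095. The log2 fold change was 0.18 ± 0.030 (SE, limma adjusted p = 4.3e-05), a 1.14-fold rise. It ranged from 0.16 to 0.21 when each library was left out in turn and passed each time (adjusted p up to 0.0019).

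Synm (ENSMUSG00000030554, chromosome 7, 67730160 to 67759742, minus strand), the linker-like filament gene, had the lowest level of the members per kb of exon. Its values were 9.24, 9.17 and 9.21 with microglial apoE, against 9.28, 9.24 and 9.31 with astrocytic apoE. The groups were separated by only 0.0029, and the log2 fold change of -0.07 ± 0.031 (SE, limma adjusted p = 0.092) did not pass. It passed after median centring (-0.09, adjusted p = 0.031). Groups that do not overlap, as in 3 of the 4 members, were common: they occurred in 38.9% of tested genes, 18.8% lower and 20.1% higher in every microglial apoE library. The protein-coding gene Ttc23 spans Synm on the opposite strand, and without a stated strand setting reads from their shared stretch cannot be told apart. Ttc23 stood at 7.22 ± 0.02 with microglial and 7.30 ± 0.02 with astrocytic apoE (log2 value, SD, n = 3).

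Within groups the members did not vary in the same way. With microglial apoE, replicate 2 had the highest Gfap and Vim values and the lowest Nes and Synm values. With astrocytic apoE, replicate 3 had the highest value of all 4. The spread was 0.03 to 0.08 between the highest and lowest microglial apoE library and 0.02 to 0.10 between those of astrocytic apoE, on the log2 scale, far under the Gfap difference.

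Per kb of annotated exon, the order of levels was Vim, Gfap, Nes and Synm in all 6 libraries. On this scale (2^value per kb, SD, n = 3) Vim had 2817 ± 70.6 with microglial and 2798 ± 99.9 with astrocytic apoE, and Gfap had 917 ± 9.64 with microglial and 1942 ± 14.0 with astrocytic apoE. Nes had 376 ± 9.82 with microglial and 331 ± 10.9 with astrocytic apoE, and Synm had 74.5 ± 1.97 with microglial and 78.4 ± 1.90 with astrocytic apoE. Neighbours in this order were separated by more than their spread in both groups. Gfap accounted for 21.9% ± 0.288 of the summed level per kb of the 4 genes with microglial and 37.7% ± 0.670 with astrocytic apoE (SD, n = 3). The share of Vim was 67.3% ± 0.688 with microglial and 54.3% ± 0.715 with astrocytic apoE, and the share of Nes was 8.62% to 9.36% with microglial and 6.29% to 6.52% with astrocytic apoE. Since shares sum to a fixed total, a lower Gfap share raises the others. The summed 2^value of the 4 genes was 19975 to 20524 with microglial and 23743 to 24866 with astrocytic apoE. Without Gfap it was 16104 to 16617 with microglial and 15564 to 16609 with astrocytic apoE, which overlap.

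**Figure D2:**
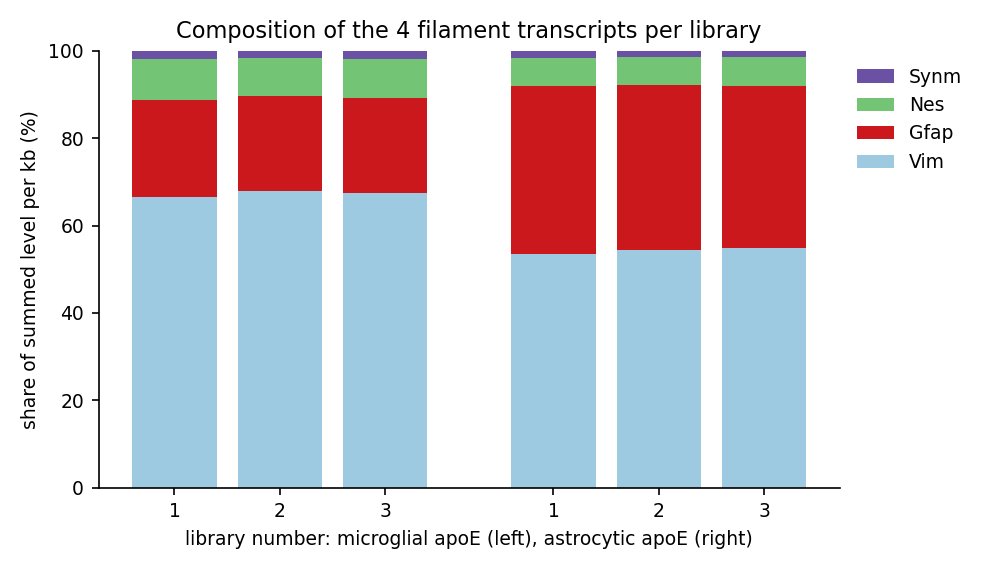
Shares of Vim, Gfap, Nes and Synm in their summed level per kb of exon (2^value per kb, in percent) for each library, microglial apoE on the left and astrocytic apoE on the right. Gfap made up 21.7% to 22.2% in the microglial apoE libraries and 37.0% to 38.4% in the astrocytic apoE libraries.

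Differences between members within a library do not depend on how libraries are scaled to each other, and all 6 pairs were compared. Gfap minus Vim was -1.79 ± 0.03 with microglial and -0.70 ± 0.04 with astrocytic apoE (log2, SD, n = 3), a difference of -1.09 between the groups. Gfap minus Nes was 0.68 ± 0.05 with microglial and 1.95 ± 0.04 with astrocytic apoE, and Gfap minus Synm was 2.71 ± 0.05 with microglial and 3.72 ± 0.02 with astrocytic apoE. Nes minus Synm had the smallest spread, 2.03 ± 0.003 with microglial and 1.77 ± 0.01 with astrocytic apoE. Vim minus Nes was 2.47 ± 0.07 with microglial and 2.64 ± 0.04 with astrocytic apoE. The groups did not overlap for these 5 pairs (two-sided exact permutation p = 0.10 for each, 0.12 adjusted over the 6 pairs), and p = 0.10 is the smallest that 3 against 3 allows. The pairs with Gfap largely restate its own difference, known beforehand, and the other pairs with Nes largely restate its call. All 5 are thus a description and no separate evidence. Among single tested genes, 38.9% did not overlap, and the share over pairs of genes was not computed. Vim minus Synm, 4.498 ± 0.074 with microglial and 4.415 ± 0.043 with astrocytic apoE, overlapped (exact permutation p = 0.30, n = 3).

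Of 18 other intermediate filament and nuclear lamin genes, 10 were tested, and 1 rose and 2 fell, beside 24.9% called over all genes, with a median log2 fold change of -0.0011, beside -0.00057 over all genes tested. Lmna, the A-type nuclear lamin, rose by 0.14 ± 0.032 (SE, adjusted p = 0.0013). Nefl, the light neurofilament chain of axons, stood at 10.76 ± 0.03 with microglial and 10.89 ± 0.02 with astrocytic apoE (log2 value, SD, n = 3) and fell, as did Lmnb1, a B-type lamin. The neuronal filament genes Nefm, Nefh and Ina and the peripheral filament gene Prph did not pass. Desmin, the muscle filament (Des), and keratins 7, 8, 14, 18 and 19, of epithelia, were under the filter, and Krt5 was listed at 0.

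Of 25 genes for filament linkers, modifying enzymes and turnover factors, 21 were tested, and 2 rose and 8 fell (median -0.061). Over all genes tested, 24.9% were called. The kinases Cdk1, Aurkb and Plk1, which phosphorylate vimentin and other filament proteins as cells divide, fell. Cdk1 stood at 7.25 ± 0.03 with microglial and 7.78 ± 0.04 with astrocytic apoE (log2 value, SD, n = 3), a log2 fold change of -0.53. These kinases are also among the cell division genes described further on, of which 14 of 16 fell. Padi2, a peptidylarginine deiminase that can citrullinate GFAP, fell with a log2 fold change of -0.27 ± 0.033 (SE, adjusted p = 8.5e-06). Chosen after their values were seen, the cytolinkers Plec (-0.13, adjusted p = 0.0088) and Dst (-0.09, adjusted p = 0.040) fell, and Cryab, the small heat shock protein that binds GFAP, rose (0.19, adjusted p = 3.1e-05).

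**Figure D3:**
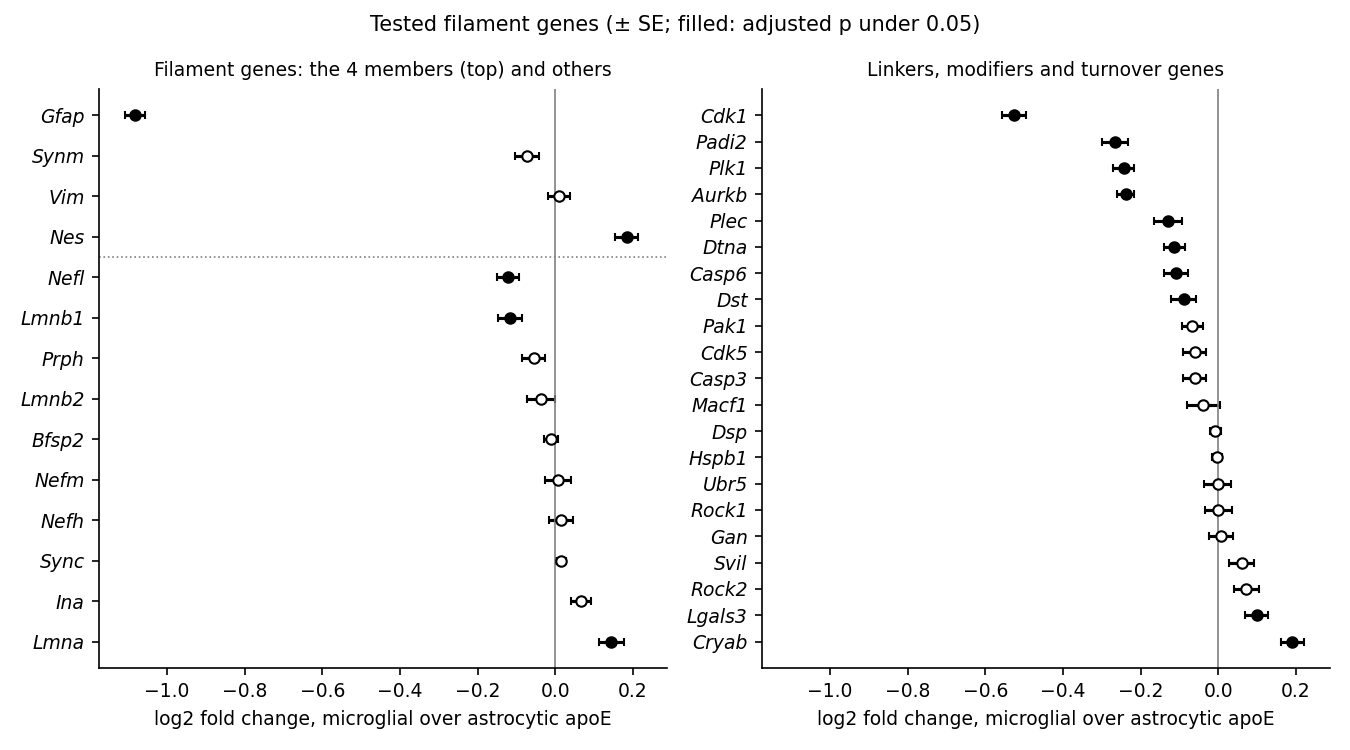
Log2 fold change (microglial over astrocytic apoE, ± SE from limma) of the tested filament genes at left, the 4 members above the dotted line, and of linkers, modifiers and turnover genes at right; filled points passed an adjusted p under 0.05. Gfap at -1.08 lies apart from every other gene plotted, of which Cdk1 at -0.53 is the nearest.

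Among 26 transcription factors tied to Gfap, Vim or Nes, all tested, 5 rose and 4 fell with a median of 0.029. The share called over all genes tested was 24.9%, and nothing is read from these counts. With the sum of 2^value made equal, 8 of the factors rose. Klf4 (0.27), the Notch effector Hes1 (0.20) and the oligodendrocyte lineage factor Olig2 (0.15) rose. Chosen after their values were seen, Sox2, which acts on a Nes enhancer, rose (0.16, adjusted p = 3.7e-04), and Nfia, which activates Gfap, fell (-0.12, adjusted p = 0.0036). Nfib (0.06, adjusted p = 0.13) and Nfix (0.03, adjusted p = 0.43) did not pass. Unlike Hes1, Hes5 fell (-0.12, adjusted p = 0.0011), as did Jun (-0.14, adjusted p = 0.0011), and Id1 rose (0.16, adjusted p = 6.8e-04). Stat3, which activates Gfap in astrocytes, stood at 11.45 ± 0.02 with microglial and 11.43 ± 0.02 with astrocytic apoE (log2 value, SD, n = 3) and did not pass (adjusted p = 0.64), and Sox9 did not pass (0.06, adjusted p = 0.12). These are transcript levels and do not measure the activity of the factors.

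Astrocyte markers other than Gfap were mostly lower as well, by smaller amounts. Of 19 tested of 20, 15 fell and 1 rose, with a median of -0.18, beside 24.9% called over all genes. Their summed 2^value was 100626 to 101344 with microglial and 115608 to 116076 with astrocytic apoE. Aldoc, a glycolytic enzyme, fell by 0.56, the mitochondrial carrier Slc25a18 by 0.63, the gap junction gene Gja1 by 0.44 and the lipid binding gene Fabp7 by 0.40 on the log2 scale. The marker that rose was Slc1a3 (0.09, adjusted p = 0.0050), and Glul (-0.03), Hepacam (0.01) and Fgfr3 (0.009) did not pass. Set against the mean of the 19 markers in the same library, Gfap stood at 0.40 ± 0.02 with microglial and 1.25 ± 0.01 with astrocytic apoE (log2, SD, n = 3), a difference of -0.85. On the same measure the other members had higher values with microglial apoE. The marker mean was itself lower with microglial apoE, which raises every member on this measure. Taken alone, Vim (0.01) and Synm (-0.07) did not pass. Vim stood at 2.19 ± 0.03 with microglial and 1.94 ± 0.04 with astrocytic apoE. Nes stood at -0.28 ± 0.04 with microglial and -0.70 ± 0.04 with astrocytic apoE, and Synm at -2.31 ± 0.04 with microglial and -2.47 ± 0.03 with astrocytic apoE. None of these 4 comparisons overlapped between groups (two-sided exact permutation p = 0.10 each, the smallest that 3 against 3 allows). With the Gfap difference known beforehand and the marker mean lower, they too are a description.

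Genes that rise with Gfap and Vim in reactive astrocytes went both ways: of 10 tested of 11, 5 rose and 3 fell (median 0.056). Each count of calls in this paragraph stands beside 24.9% called over all genes. Lcn2, a secreted iron-binding protein, rose by 0.66, the chemokine Cxcl10 by 0.62 and ceruloplasmin (Cp) by 0.39 on the log2 scale, whereas the protease inhibitor Serpina3n fell by 0.84. Of 16 progenitor and radial glia genes, the setting in which Nes is best known, 5 rose and 8 fell (median -0.058). Tnc, an extracellular matrix protein, rose by 0.59, and Ptprz1, a receptor phosphatase, fell by 0.20. Of 16 cell division genes 14 fell and 0 rose in limma (0 higher at an unadjusted p under 0.05 too, median -0.31), with Mki67 at 7.65 ± 0.04 with microglial and 8.47 ± 0.03 with astrocytic apoE (log2 value, SD, n = 3). The only 2 that did not pass were Mcm2 and Tyms. Nes rose in the same libraries.

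Markers of other cells that make vimentin were examined in the same libraries. Every count of calls given here stands beside 24.9% called over all genes, and nothing is read from counts near that share. Of 18 fibroblast, pericyte and endothelial genes, 11 were tested, 4 rose and 1 fell, and their summed 2^value was 2760 to 2836 with microglial and 2648 to 2667 with astrocytic apoE. Pdgfra, a growth factor receptor of fibroblasts and oligodendrocyte precursors, changed most, with a log2 fold change of -0.38 (adjusted p = 4.6e-10). The smooth muscle genes Acta2 (0.21) and Tagln (0.15) and the collagen gene Col1a1 (0.21) rose, and the endothelial genes Cdh5 and Cldn5 were under the filter. Microglia and macrophage genes summed to 753 to 756 with microglial and 721 to 738 with astrocytic apoE over 15 genes, of which 12 were tested, 1 rose and 0 fell in limma (4 higher and 0 lower at an unadjusted p under 0.05). The member that rose, C1qc (0.06), lost its call after median centring (adjusted p = 0.17) and when any single library other than microglial replicate 2 was left out (adjusted p = 0.063 to 0.19). Tmem119, P2ry12 and Trem2 were under the filter. Ependymal genes, of cells that also express Vim, summed to 706 to 733 with microglial and 738 to 759 with astrocytic apoE, and 0 of 3 tested passed in limma (1 lower at an unadjusted p under 0.05). Of 9 tested oligodendrocyte lineage genes of 10, 1 rose and 3 fell, and of 12 neuron genes 2 rose and 4 fell. The count of neuron genes that fell was 1 to 3 when each library was left out in turn, so the 4 needed all 6 libraries. It was 2 when libraries were scaled to equal sums of 2^value. What part any of these cell types had in the members' values was not tested.

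**Figure D4:**
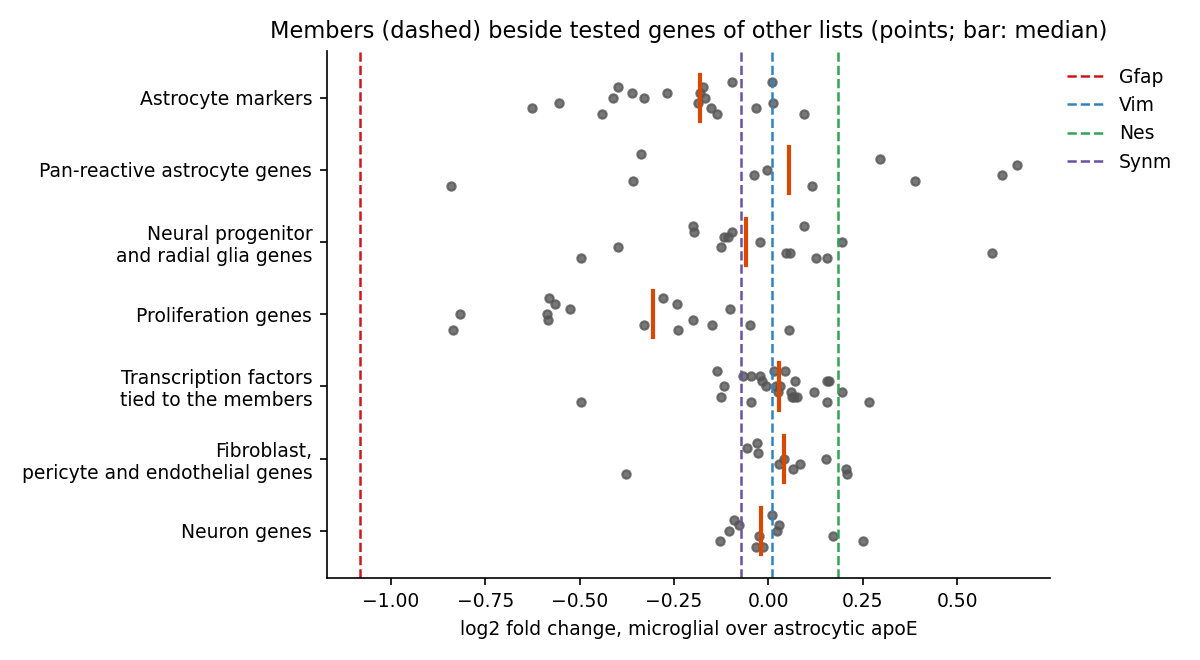
Log2 fold change (microglial over astrocytic apoE) of every tested gene in 7 lists (grey points, list median in orange), with the 4 members as dashed lines. Gfap lies below every point, the astrocyte and cell division medians are -0.18 and -0.31, and Vim, Synm and Nes fall within the range of most lists.

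The genes most like each member over the 6 libraries were taken by the root mean square distance between values centred on each gene's own mean, among 9312 tested genes with a mean value of at least 8. None came within 0.05 of Gfap. The nearest were the protease inhibitors A2m (0.12, log2 fold change -0.86) and Serpina3n (0.12, -0.84), then the cell division genes Top2a (0.13, -0.83) and Mki67 (0.14, -0.82), and Net1 (0.20, -0.70), a guanine nucleotide exchange factor. With spreads within groups this small, the distance to Gfap mainly follows the log2 fold change. These genes thus mark low fold changes and no further likeness to Gfap. For Nes, 504 genes lay within 0.05, led by the phosphatase gene Phlpp1 (0.0078), then Papd7 (0.020) and Larp1 (0.020). For Synm 2589 lay within 0.05 and for Vim 3723, so their nearest genes (Zfp180, Map3k12 and Crat, and Cacnb1, Romo1 and Pex26) mark only that many transcripts had a similarly flat profile.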

How the data were processed

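Total RNA of 6 samples was sequenced on a DNBSEQ platform, per the labels' protocols. In the submitters' processing notes GRCm38 is listed with DESeq2, featureCounts, HISAT2 and FastQC, without roles or versions. The authors deposited a single log2 value per symbol and sample, with no header. The same 21031 symbols were 0 in every library and none in only part of them, as a regularized logarithm gives; this transformation is inferred from the values, and it shrinks fold changes and SDs of weak genes. No intervals from counts could be given, since depth is unknown.

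Values were tested as deposited with limma 3.58.1 (R 4.3.3, trend and robust options), after a filter of 10 on the 2^value scale in at least 3 libraries. Positions and exon lengths came from GENCODE M21 (GRCm38). Promoter windows came from RefSeq and matched all 4 members. Single values were compared with exact permutation tests (scipy 1.17.1). Alternatives were other scalings, filters, limma options, a replicate block and each library left out. The procedure was tested on simulated data. The members and lists were chosen with earlier results of these data known. The genes named are the members, the called other filament genes, the 4 smallest p of each list and the genes most like each member; others, among them genes named as not passing or as under the filter, were chosen after their values were seen. A gene that this rule takes is not reported here.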

Additional observations from a re-analysis of the deposited data

How the results depend on the processing

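Gfap and Nes kept their direction and their call under every alternative run. Gfap ranged from -1.09 to -1.07 and Nes from 0.16 to 0.21 on the log2 scale with each library left out in turn, and members called stayed at 1 higher and 1 lower there. Synm passed only after median centring (-0.091, adjusted p = 0.031, 2 members called lower) and ranged from -0.091 to -0.053 with libraries left out. Vim, which never passed, changed sign after median centring (-0.0084), with the sum of 2^value without mitochondrial transcripts made equal (-0.00023) and among libraries left out (-0.014 to 0.037). With the replicate block, Gfap stood at -1.08 and Nes at 0.18 (adjusted p = 7.3e-05), and 3387 genes were called against 3742. Same-numbered libraries did not deviate together (r = 0.039, -0.12 and -0.19), and not every library correlated best with its own number, so the numbers were not taken as pairs. Higher calls among other filament and lamin genes came to 2 in place of 1 with equal sums, without the trend and robust options and without astrocytic replicate 3. Transcription factors called higher came to 8 in place of 5 with equal sums. All genes called ranged from 2556 to 4541 with libraries left out, and the lower calls were 2765 in place of 1780 after median centring. Some named genes that did not pass as deposited changed sign. Cacnb1 did so with equal sums (0.010) and with libraries left out (-0.026 to 0.022). Dynlrb2 did so with equal sums (0.0074) and with libraries left out (-0.015 to 0.0061). Pex26 did so with median centring (-0.018), equal sums without mitochondrial transcripts (-0.010) and libraries left out (-0.024 to 0.030). Romo1 did so with median centring (-0.0015) and libraries left out (-0.0036 to 0.040). The cause of these changes was not tested. The unknown depth limits every SE here to the spread of transformed values.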
